A study of Mus musculus with 22 samples.

Results

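The replication-dependent histone genes code for the bulk histones that package newly made DNA. They were taken here as every gene whose deposited symbol begins with Hist1h, Hist2h, Hist3h or Hist4. This gave 67 gene identifiers of 49927 in the deposited comparisons: 6 for the linker histone H1, 20 for H2A, 20 for H2B, 8 for H3 and 13 for H4. By name, 52 belong to the large cluster on chromosome 13, 11 to the cluster on chromosome 3 and 3 to a small cluster on chromosome 11, and Hist4h4 stands alone on chromosome 6.

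H2A, H2B, H3 and H4 form the core of the nucleosome, and H1 binds the DNA between nucleosomes. In dividing cells these genes are transcribed in S phase, and their messages end in a short stem-loop in place of a poly(A) tail. The stem-loop is bound by Slbp, the stem-loop binding protein, and the U7 small nuclear RNP directs the cut behind it. Adult cardiomyocytes (CMCs) rarely divide, and they also make histones from replication-independent genes such as H3f3b and H2afv, whose messages carry a poly(A) tail. Libraries made from total RNA can hold messages of both kinds.

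Ventricular CMCs of adult male mice were isolated by collagenase perfusion of the heart, and total RNA was sequenced from 6 groups. CASK controls (n = 3, 11 to 12.7 weeks) carried MHC-Cre alone, and CASK KO mice (n = 3, 10.1 to 11.3 weeks) carried MHC-Cre with floxed CASK. SAP97 controls (n = 3, 10.6 to 13 weeks) carried floxed SAP97 without Cre, and SAP97 KO mice (n = 3, 10.7 to 13 weeks) carried floxed SAP97 with MHC-Cre. MDX controls (n = 5, 10.9 to 14.7 weeks) were wild type, and MDX mice (n = 4, 10.9 to 17.7 weeks) were MDX -/-, a germline dystrophin mutation present in every cell. Cre was driven by the alpha-MHC promoter, so the deletion was limited to CMCs. CASK and SAP97 are membrane scaffold proteins of these cells. All CASK and SAP97 mice were of mixed strain. MDX controls were C57Bl/6J or C57Bl/6 and MDX mice C57Bl/6Ros, except for replicate 5 of each, a mixed strain backcrossed to C57Bl/6 or C57Bl/6J, so substrain and genotype cannot be told apart. The CASK controls alone among the controls carried Cre. MDX replicate 1, a library of few reads, was left out of every value.

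The libraries held 24253610 to 42159185 counted read pairs, and levels are given as CPM, read pairs scaled to a common library size of 1e6. Cask read 0.58 to 2.34 CPM in CASK KO and 8.56 to 9.62 in CASK controls, and Dlg1, the gene of SAP97, 10.8 to 13.4 in SAP97 KO and 54.3 to 65.1 in SAP97 controls. Dmd, the dystrophin gene, read 74.7 to 124 CPM in MDX and 229 to 322 in MDX controls, but 41.2 to 49.2 in the CASK controls, below the MDX range. It also read 140 to 198 CPM in CASK KO, and 165 to 192 in SAP97 KO beside 295 to 393 in SAP97 controls. CPM were scaled by the trimmed mean of M values (TMM), with factors of 0.72 to 1.27. The labelled cell type fits its markers: 9 CMC genes (Myh6, Tnnt2, Ttn and others) summed to 66758 CPM or more in every library. The sums reached at most 538 CPM for 9 endothelial genes, 324 for 8 fibroblast genes, 103 for 11 macrophage and leukocyte genes and 40.7 for 6 erythroid genes. Lower levels per cell and fewer cells of a type cannot be told apart in such bulk RNA.

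The stem-loop is the sequence that sets these messages apart, and it is shown for chosen examples, abundant genes and genes named in the comparisons among them. It was found in the GENCODE vM21 transcript (build GRCm38) of 42 of the 67 genes, 8 of the 20 H2B genes among them. None was found for Hist1h2bc, an abundant H2B gene. In the lines below the 16 bases of the stem-loop are in capitals, with flanking transcript bases in lower case.
Hist1h4h: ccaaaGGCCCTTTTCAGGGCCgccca
Hist1h4d: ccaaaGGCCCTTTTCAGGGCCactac
Hist1h4c: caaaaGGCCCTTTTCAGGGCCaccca
Hist4h4: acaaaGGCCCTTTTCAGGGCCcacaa
Hist1h4i: ttaaaGGCCCTTTTTAGGGCCaccac
Hist1h4j: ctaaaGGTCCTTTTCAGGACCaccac
Hist1h1c: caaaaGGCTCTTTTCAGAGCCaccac
Hist1h2bg: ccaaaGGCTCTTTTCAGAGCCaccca
Hist1h3e: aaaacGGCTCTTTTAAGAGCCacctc
Hist2h2ac: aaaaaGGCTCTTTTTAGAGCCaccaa

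The stem differed by histone type. All 12 stem-loops of H4 genes had a stem of GGCCCT or GGTCCT, and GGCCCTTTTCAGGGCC was shared by 7 of them. The 30 stem-loops of H1, H2A, H2B and H3 genes began with GGCTCT, and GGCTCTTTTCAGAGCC was shared by 23 of them. Hist1h4k was the only H4 gene with no stem-loop, since its model ends before one. In 17 genes the annotated model ran on for 200 bases or more behind the stem-loop. Examples are 2445 bases in Hist4h4, 1257 in Hist2h4, 1153 in Hist1h1e, 840 in Hist1h1c and 770 in Hist1h4d. The median level of these 17 genes was 3.32 CPM per kilobase of exon, against 0.456 for the 25 genes whose models ended within 200 bases of it. Both sets reached from 0 to over 128 CPM per kilobase, so their ranges overlapped almost wholly. They also differed in histone type. Of the H2A genes with a stem-loop, 2 of 11 were among the 17, against 6 of 12 H4 genes.

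Histone reads were a small part of each library. The 67 genes together took 0.0211 to 0.0469% of the counted read pairs, with a median of 0.0336%. Of the 67, 38 had at least 1 read pair in each of the 21 libraries, 8 had none in any, and the remaining genes were counted in some libraries only. A sum of 0 read pairs over 21 libraries was found for 5 H2A genes, for Hist2h3b and Hist2h3c1 and for Hist2h2bb. Hist2h2aa1 and Hist2h2aa2 are near-identical copies, with 86.7 and 100% of their 150-base windows found in another member, and Hist1h2aj and Hist2h3b share 89.7 and 73.7%. Read pairs of such copies can be discarded or split, so their values are uncertain.

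H4 genes dominated the histone reads. The summed level of the 13 H4 genes was 185 ± 67.5 CPM (SD, n = 21), followed by H1 with 84.7 ± 16.6, H2B with 54.2 ± 11.3, H3 with 8.21 ± 3.11 and H2A with 3.57 ± 0.947. H4 took 39.2 to 63.7% of the histone read pairs of a library, and H2A only 0.632 to 1.84%. The order H4, H1, H2B, H3, H2A held for the group means of all 6 groups. It also held in 20 of 21 single libraries, the exception being MDX control replicate 3, where H2B lay above H1. Nucleosomes hold the 4 core histones in equal number, and the read counts were far from that balance. Most windows were shared with another member in 11 of the 20 H2A genes. This held for 3 of 20 H2B, 2 of 8 H3, 3 of 13 H4 and 0 of 6 H1 genes. Read pairs of such copies can be discarded or split, and the sums were not scaled by exon length. The part of either in the low H2A share was not tested.

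**Figure D1:**
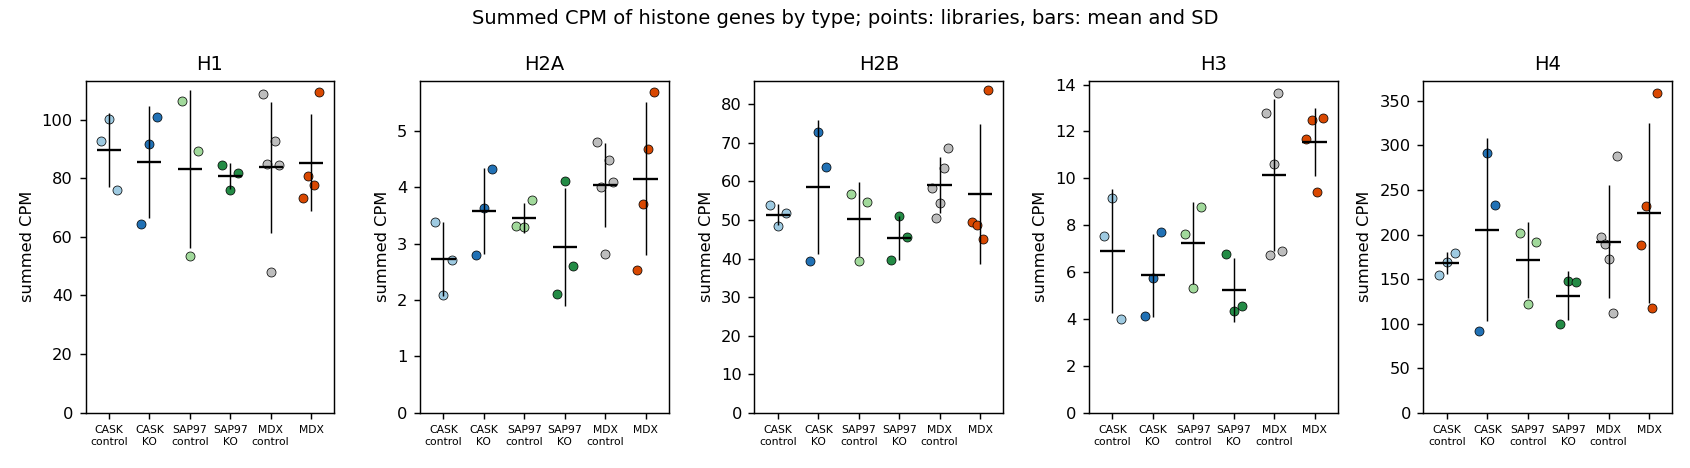
Summed CPM of the histone genes of each type (linear axes from 0), with a point for each of the 21 libraries, a thick bar for the group mean and a thin bar for the SD. Groups of a line overlapped in every panel, and MDX replicate 5 was the highest library for H4 with 359 CPM and for H2B with 83.8 CPM.

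A few genes carried most of these reads. Hist1h1c, Hist1h4h, Hist1h4d, Hist1h4c and Hist1h2bc together held 75.7% of all histone read pairs, and between 67.5 and 79.3% in any library. Per kilobase of exon, the 3 H4 genes led: Hist1h4h with 141 CPM per kilobase, Hist1h4d with 129 and Hist1h4c with 92.7. Hist1h1c, a linker histone gene, followed with 44.6 and Hist1h2bc, an H2B gene, with 41.6 CPM per kilobase. The next 7 were Hist1h1e with 14.8, Hist1h4f with 11.9, Hist1h4n with 6.89, Hist1h2bg with 5.84, Hist1h4k with 4.57, Hist1h3e with 4.15 and Hist1h4i with 3.90. Neighbours in this order overlapped in range over the libraries, except Hist1h2bc (27.2 to 63.1) and Hist1h1e (7.92 to 22.2). Hist1h4d and Hist1h4c carry a limit, since their exon lengths in the deposited table are 393 and 395 bases, and 1138 and 820 bases in vM21. The same holds for Hist1h1e with 748 and 1930 bases. In vM21, Hist1h1e also shares a strand and exon sequence with Hist1h2be, and Hist1h4n shares 77.2% of its windows with another member.

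**Figure D2:**
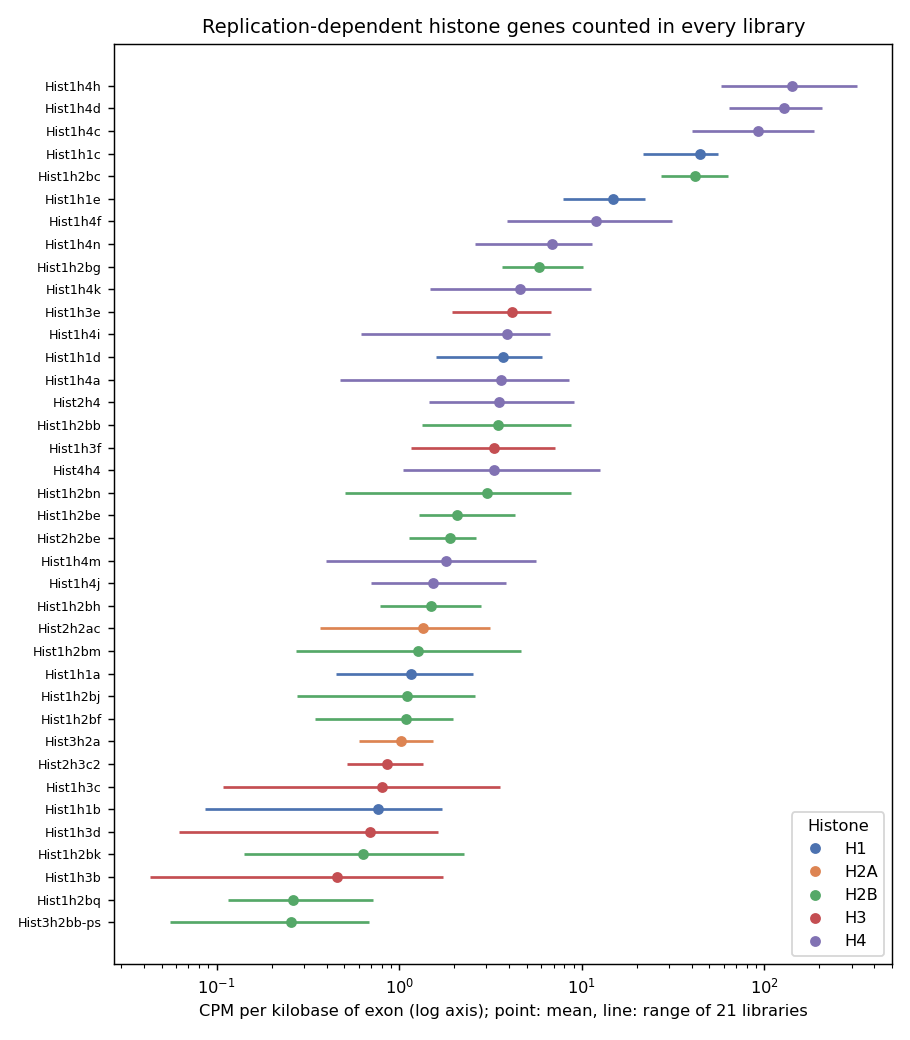
Level of the 38 histone genes counted in every library, as CPM per kilobase of exon on a log axis. Points are means and lines the range over 21 libraries, coloured by histone type. Hist1h4h, Hist1h4d and Hist1h4c stand above 90 CPM per kilobase and Hist3h2bb-ps is lowest with 0.255.

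Position on chromosome 13 split the large cluster. The 28 members between 23531050 and 23934851 held 88.4% of all histone read pairs, and 19 of them were counted in every library. The 21 members between 21715763 and 22043676 held 4.02%, with 10 counted in every library. Hist1h2al lies apart at 51202727 to 51203065 and had no read pair. Hist1h2bh and Hist1h2bm have no vM21 record and were not placed. Of the small loci, chromosome 3 held 3.64% of the histone read pairs, Hist4h4 on chromosome 6 held 2.89% and chromosome 11 held 0.713%. On chromosome 11 (58948920 to 58956830), Hist3h2a read 1.29 to 3.27 CPM, the pseudogene Hist3h2bb-ps 0.0258 to 0.317 and Hist3h2ba 0 to 0.246. Hist3h2a was thus the only member of that cluster with more than 10 read pairs in any library.

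Many H2A genes start head to head with an H2B gene and share a promoter with it. There were 13 such pairs with starts within 400 bases of each other. In 12 of the 13 the H2B gene had more read pairs, and in 8 it did so in every library. Hist1h2bc had 587 to 1803 read pairs a library, whereas Hist1h2ac, whose start lies 251 bases away, had 0 to 14. Over all libraries this was 184.6-fold per kilobase, the widest gap of the 11 pairs with at least 4 H2A read pairs, whose median was 7.51-fold. The exception was Hist3h2a, with 1505 read pairs in all against 79 for Hist3h2bb-ps. The pair Hist2h2ac and Hist2h2be on chromosome 3 came closest, with 479 and 3425 read pairs in all, or 1.42-fold per kilobase. The exon length of Hist1h2ac was 476 bases in the deposited table and 2482 in vM21. Windows shared with other members also differed within pairs, in both directions. Hist1h2ai shares 86.1% and Hist1h2bl 29.7%, and Hist1h2ag shares 65.5% and Hist1h2bj 22.3%. The other way, Hist1h2ak shares 0% and Hist1h2bn 34.9%, and Hist1h2ac shares 5.6% and Hist1h2bc 17.4%. The part of such copies in these gaps was not tested.

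A feature of the annotation set the H2A genes apart. In vM21 a miRNA model lies antisense within 19 of the 20 H2A genes, and within no H1, H2B, H3 or H4 gene. These miRNA models had 0 read pairs in the deposited tables. Other antisense models did have read pairs: 926 for Gm20632 over Hist2h2aa2 and 178 for Gm20633 over Hist2h2aa1, summed over 21 libraries. Gm20628, over Hist2h3b and Hist2h2bb, had 40. Hist2h2ab is the only H2A gene without a miRNA model, so H2A genes with and without it cannot be compared. It had 0 to 4 read pairs a library, and another antisense model, Gm15444, lies over it. Hist2h2ac and Hist3h2a carry a miRNA model and were the only H2A genes counted in every library. The strand setting of the counting is not given in the sources used here, and the part of these models in the low H2A values was not tested.

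**Figure D3:**
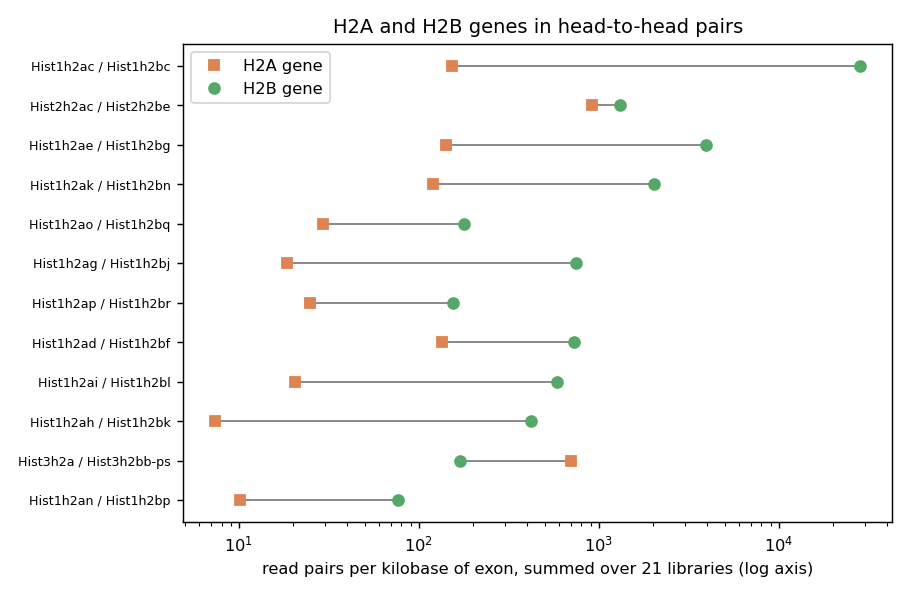
Read pairs per kilobase of exon summed over 21 libraries (log axis) for the H2A gene (square) and the H2B gene (circle) of 12 head-to-head pairs; the pair Hist1h2aa and Hist1h2ba is left out because Hist1h2aa had 0 read pairs. The circle lies to the right in every pair but Hist3h2a and Hist3h2bb-ps.

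The promoter between Hist1h2ac and Hist1h2bc is shown because these neighbours had the widest gap. It is the RefSeq promoter of Hist1h2ac, on the minus strand (GRCm38.p6, chr13:23683910-23684209), from 250 bases before the start to 50 after it. Capitals mark the CCAAT box, the TATA box and the octamer on either strand, spelled out below.
Hist1h2ac promoter: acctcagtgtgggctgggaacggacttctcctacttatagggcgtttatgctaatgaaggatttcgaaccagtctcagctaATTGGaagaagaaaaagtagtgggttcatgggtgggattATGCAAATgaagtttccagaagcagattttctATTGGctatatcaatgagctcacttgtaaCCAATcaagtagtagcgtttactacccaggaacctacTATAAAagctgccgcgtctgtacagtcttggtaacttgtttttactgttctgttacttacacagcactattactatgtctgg

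RefSeq promoters were matched for 59 of the 67 genes by gene ID. The CCAAT box lay in the promoters of all 47 matched H1, H2A, H2B and H3 genes, in 3 of 12 matched H4 genes and in 37.4% of all 32851 promoters. The TATA box TATAAA was found in 33 of the 59, or 55.9%, against 13.6% of all promoters. The octamer ATTTGCAT, known from H2B promoters, was found in 7 of 18 H2A and 6 of 16 H2B promoters, in no H1, H3 or H4 promoter, and in 1.74% of all. Windows of head-to-head genes overlap, so a match can count for both genes. The H1 box AAACACAAA lay in 3 of the 59 and in 0.767% of all. These were 1 of 6 H1, 1 of 18 H2A and 1 of 16 H2B promoters. The 3 most abundant H4 genes differed: Hist1h4c and Hist1h4d had a CCAAT box and Hist1h4h had none.

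The comparison of CASK KO with CASK control asks which genes respond to the loss of the CASK scaffold in CMCs. By edgeR's quasi-likelihood test no gene passed an adjusted p of 0.01 among 14963 tested (0%), and so none of the 36 histone genes that passed the count filter. The targeted gene Cask was thus not called either, so a missing call does not show a missing effect. At an unadjusted p under 0.05 there were 0 histone genes, against 8.84% of all genes, and DESeq2 called 0 histone genes as well. The median log2 fold change of the 36 was 0.08, with 22 above 0, beside 0.01 for all genes, of which 52.0% were above 0. With the replicate number as a block, 11 genes and no histone gene were called.

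Hist2h2ac, an H2A gene on chromosome 3, had the smallest p. It read 0.37, 0.38 and 0.24 CPM in CASK controls and 0.38, 0.75 and 0.72 in CASK KO, a log2 fold change of 0.91 ± 0.40 (SE; edgeR adjusted p = 0.568). The groups only just failed to overlap, as did those of 5.99% of all genes in this direction. No tested histone gene had CASK KO libraries all below the controls, against 8.45% of all genes. Hist4h4, the H4 gene on chromosome 6, read 6.32, 4.31 and 10.6 CPM in controls and 3.92, 35.8 and 11.96 in CASK KO (log2 fold change 1.29 ± 0.69, edgeR adjusted p = 0.668). Its high mean came from CASK KO replicate 2, and the groups overlapped. Hist1h4j read 0.70 to 1.36 CPM in controls and 1.12 to 1.80 in CASK KO (0.58 ± 0.35 on the log2 scale, edgeR adjusted p = 0.724). By type, 9 of 12 tested H4 genes lay above 0 and 4 of 5 tested H3 genes below it. The median over all 36 turned to -0.06 without CASK control replicate 3 and to -0.04 on library totals. Without CASK KO replicate 1, 7 histone genes had an unadjusted p under 0.05 by edgeR's test. The share of all genes at that level was not counted for this fit, so the 7 cannot be read against it.

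The spread in CASK KO was wide. Hist1h4h read 28.7, 120 and 97.3 CPM in CASK KO replicates 1 to 3 and 44.9, 46.5 and 68.1 in the controls. CASK KO replicate 1 was the lowest of all 21 libraries for the histone sum with 202 CPM, and replicate 2 read 465 CPM. On library totals replicate 1 read 242 CPM, above MDX control replicate 3 with 211, SAP97 KO replicate 1 with 213 and SAP97 control replicate 2 with 231. The share of read pairs that could not be given to a single gene was 12.1% in replicate 1 and 22.3% in replicate 2, against 11.5 to 23.1% over all libraries. Its part in the histone levels was not tested.

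The comparison of SAP97 KO with SAP97 control asks the same of SAP97, and here the groups also differ in Cre. Of 14722 genes tested, 3 (0.0204%) were called, and none of the 33 histone genes tested. At an unadjusted p under 0.05 there were 2 histone genes by edgeR's test, both lower, against 7.97% of all genes in either direction and 3.28% lower, and 1 by DESeq2. The median log2 fold change of the 33 was 0.01, with 17 above 0, beside 0.03 for all genes, of which 54.8% were above 0.

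Both genes at a low unadjusted p code for H4. Hist1h4c read 36.9, 25.3 and 46.4 CPM in controls and 20.6, 23.6 and 28.7 in SAP97 KO, a log2 fold change of -0.53 ± 0.21 (edgeR adjusted p = 0.622). The groups overlapped through SAP97 control replicate 2. Hist1h4j read 1.48, 1.02 and 1.01 CPM in controls and 0.54, 0.66 and 0.74 in SAP97 KO (-0.81 ± 0.36 on the log2 scale, edgeR adjusted p = 0.625). Its groups did not overlap, which held for 6.80% of all genes in this direction and for no other histone gene tested, while 6.14% of all genes did not overlap upwards. Hist1h3f, an H3 gene, read 1.66 to 3.25 CPM in controls and 1.42 to 1.73 in SAP97 KO (-0.57 ± 0.30, edgeR adjusted p = 0.659). Of the 12 genes with the highest level per kilobase, 9 lay below 0 in SAP97 KO, with log2 fold changes from -0.67 to 0.04. Without SAP97 control replicate 2, the median of the tested histone genes was -0.28, with 6 at an unadjusted p under 0.05 by edgeR's test. The share of all genes at that level was not counted for this fit, so the 6 cannot be read against it. SAP97 control replicate 2 was the lowest of 21 for 9 of the 38 genes counted throughout.

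The comparison of MDX with MDX control asks what the loss of dystrophin changes in CMCs. No gene of 14994 was called (0%), including the 39 histone genes tested. Dmd was thus not called either, so here too a missing call does not show a missing effect. At an unadjusted p under 0.05 there were 0 histone genes, against 2.72% of all genes, and DESeq2 called 0. The median log2 fold change of the 39 was -0.02, with 19 above 0, beside -0.01 for all genes, of which 48.2% were above 0.

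Hist1h3e had the smallest p, at 4.13 to 5.63 CPM in MDX (median 5.12) and 3.03 to 5.06 in MDX controls (median 3.66), a log2 fold change of 0.32 ± 0.19 (edgeR adjusted p = 1.00). Hist1h2bk, an H2B gene of low level, read 0.14, 0.067, 0.18 and 0.60 CPM in MDX and 0.15 to 1.08 in controls (-1.03 ± 0.68, edgeR adjusted p = 1.00). Hist2h2be, an H2B gene on chromosome 3, read 3.74 to 5.31 CPM in MDX and 3.44 to 6.87 in controls (-0.30 ± 0.21, edgeR adjusted p = 1.00). The groups overlapped for all 39 genes, whereas 0.58% of all genes lay wholly higher and 0.66% wholly lower. By type, 4 of 14 tested H2B genes and 8 of 12 tested H4 genes lay above 0. MDX replicate 5 stood apart, since it was the highest of 21 libraries for 19 of 38 genes counted throughout, or for 6 on library totals. MDX control replicate 4 was highest for 6 of these genes, and for 17 on library totals. The ribosomal share of reads in MDX replicate 5 was 6.71%, against 0.262 to 7.86% over all libraries. Without MDX replicate 5 the median log2 fold change of the tested histone genes was -0.40.

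**Figure D4:**
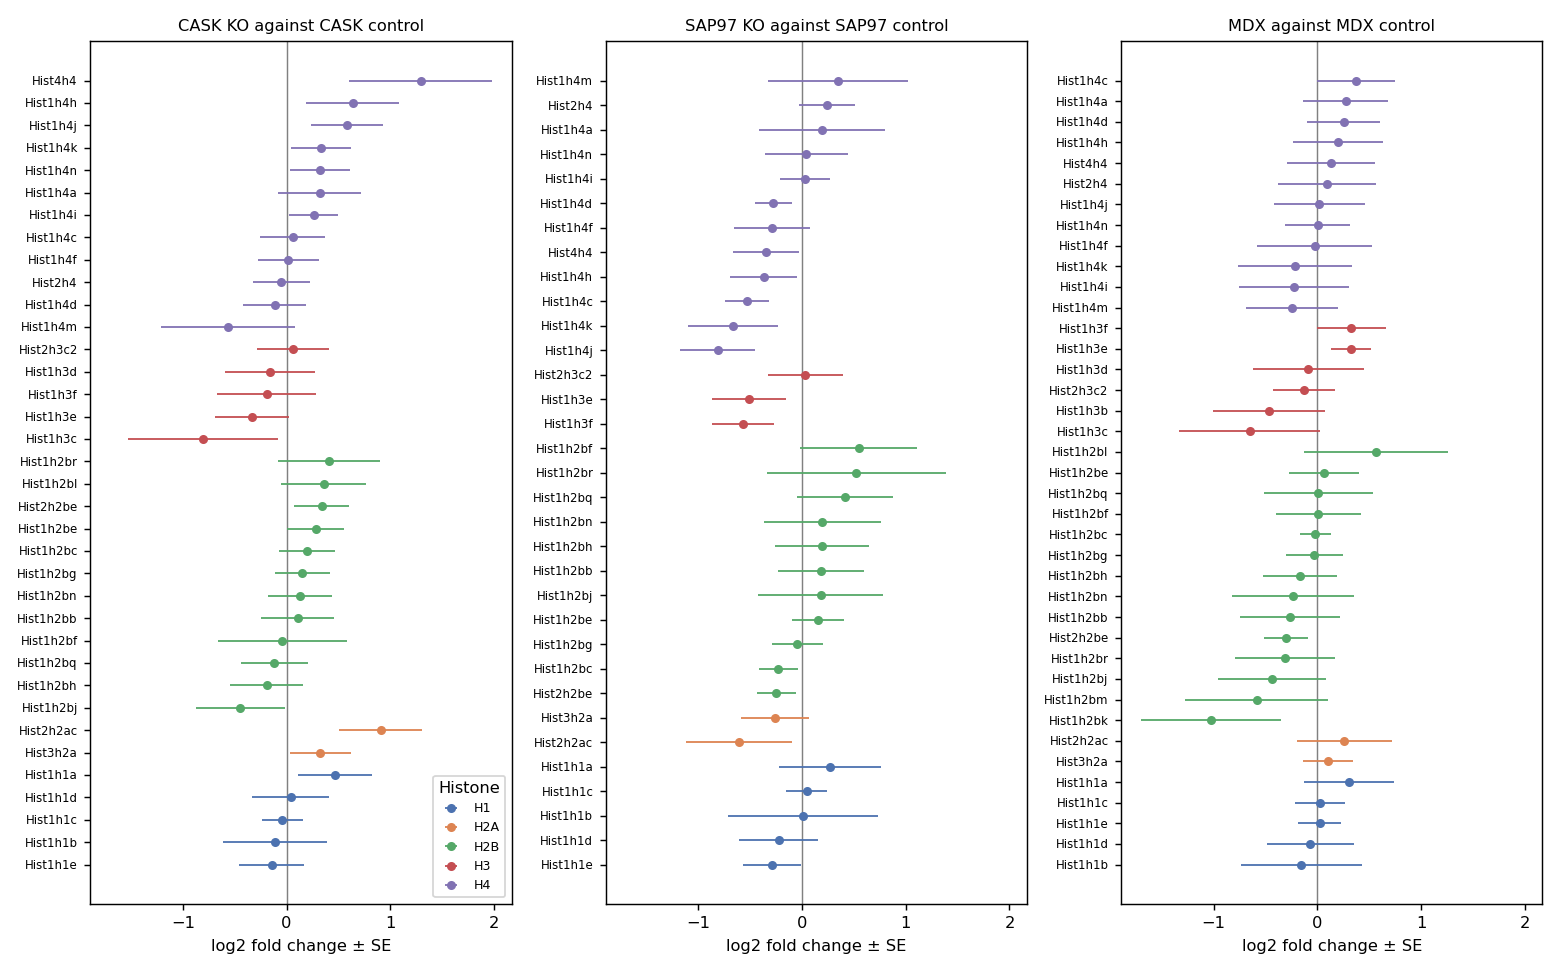
Log2 fold change of knockout over control for every histone gene tested in the 3 lines, with SE bars and coloured by type. Points lie on both sides of 0 in each panel, and no gene passed an adjusted p of 0.01.

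The 3 effects were then set against each other in a model of all 21 libraries, with 15962 genes and 38 histone genes tested. Of all genes, 52 (0.326%) differed between the CASK KO and SAP97 KO effects, 12 (0.0752%) between CASK KO and MDX, and 1 (0.00626%) between SAP97 KO and MDX. No histone gene differed in any of the 3 by edgeR's test, and DESeq2 was not run on this model. At an unadjusted p under 0.05 the counts of histone genes were 1, 0 and 0, against 6.74%, 6.58% and 5.26% of all genes. That gene was Hist1h4j, with a difference of 1.42 ± 0.64 on the log2 scale (CASK KO minus SAP97 KO, edgeR adjusted p = 0.662). Its own log2 fold changes, given above, were 0.58 in CASK KO and -0.81 in SAP97 KO.

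Wild type mice were compared with the mean of the other 5 groups because the labels mention poly-A selection for WT samples and depletion of ribosomal RNA for the rest, while the study's methods describe depletion for all. Poly-A selection would leave out messages without a tail. Of 15962 genes 18 were called (0.113%), and no histone gene by edgeR's test. Yet 34 of 38 histone genes lay higher in wild type, with a median log2 difference of 0.32 beside 0.03 for all genes, of which 54.5% lay higher. At an unadjusted p under 0.05 there were 8 histone genes, all higher, where 7.21% of all genes were higher at that level. Genotype and strain cannot be told apart from the library protocol here. The paper holds that the variation among MDX controls likely came from a batch effect of separate sequencing rounds. The round of each sample is not given in the sources used here, so its part cannot be told apart either.

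H3 and H2B genes led that difference. The H3 level was not particular to wild type. Summed CPM of H3 genes were 10.1 ± 3.23 (SD) in wild type and 11.5 ± 1.47 in MDX. In the CASK and SAP97 groups the H3 means were 5.22 to 7.24 CPM. For H2B the means were 59.1 CPM in wild type, 56.8 in MDX and 45.4 to 58.6 in the CASK and SAP97 groups. Hist1h3b read 0.47, 0.24, 0.39, 1.08 and 0.34 CPM in the 5 wild type libraries and 0.027 to 0.74 in the others, a log2 difference of 1.45 ± 0.40 (edgeR adjusted p = 0.149). Hist1h2bb was higher by 0.82 ± 0.31, Hist1h3c by 1.20 ± 0.47 and Hist1h2bm by 1.20 ± 0.48, with edgeR adjusted p from 0.298 to 0.328. These are genes of few reads, and 1 library weighed on them. MDX control replicate 4 was highest for Hist1h3b, Hist1h3c and Hist1h2bm. Without it 2 histone genes stayed under an unadjusted p of 0.05 by edgeR's test, and the share of all genes there was not counted. In that fit 7 genes in all were called, and the log2 difference of Hist1h3c was 0.44. The abundant genes moved little, since the 12 highest per kilobase had a median log2 difference of 0.12.

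MDX control replicate 4 also stood apart for genes of dividing cells. Mki67, a marker of cycling cells, read 10.8 CPM in it and 0.762 to 3.66 in the other 20 libraries, and Top2a, the topoisomerase of replicating cells, 5.44 against 0.225 to 2.36. Over the 16 mitosis genes, 10 of 12 tested lay higher in wild type, with a median of 0.59 and the smallest p for Mki67 (1.22 ± 0.36, edgeR adjusted p = 0.177) and Tpx2 (1.09 ± 0.39, edgeR adjusted p = 0.260). Of 14 other RNAs without a poly(A) tail, 10 of 11 tested lay higher in wild type, with a median of 0.74. Rn7s1 and Rn7s2, signal recognition particle RNAs, were higher by 1.92 ± 0.51 and 1.90 ± 0.51 (edgeR adjusted p = 0.120 and 0.132). Rn7s1 read 1527 CPM in MDX control replicate 3, 126 to 517 in the other wild type libraries and 19.8 to 485 in the other groups, and without that library Rn7s1 and Rn7s2 were higher by 0.90 and 0.91. All 9 endothelial markers lay higher in wild type (median 0.24, smallest p for Cdh5 with 0.73 and Tie1 with 0.38), as did all 8 fibroblast markers (median 0.15, Tcf21 with 0.35 and Col1a1 with 0.33). All 4 tested erythroid genes lay higher (median 1.65, Hbb-bs with 1.78 and Hbb-bt with 1.95), and their median was 0.51 without MDX control replicate 1. Of 9 tested macrophage and leukocyte markers 8 lay lower (median -0.15, Ptprc with -0.44 and Adgre1 with -0.39). None of these marker genes was called, and the part of all of these in the histone values was not tested.

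**Figure D5:**
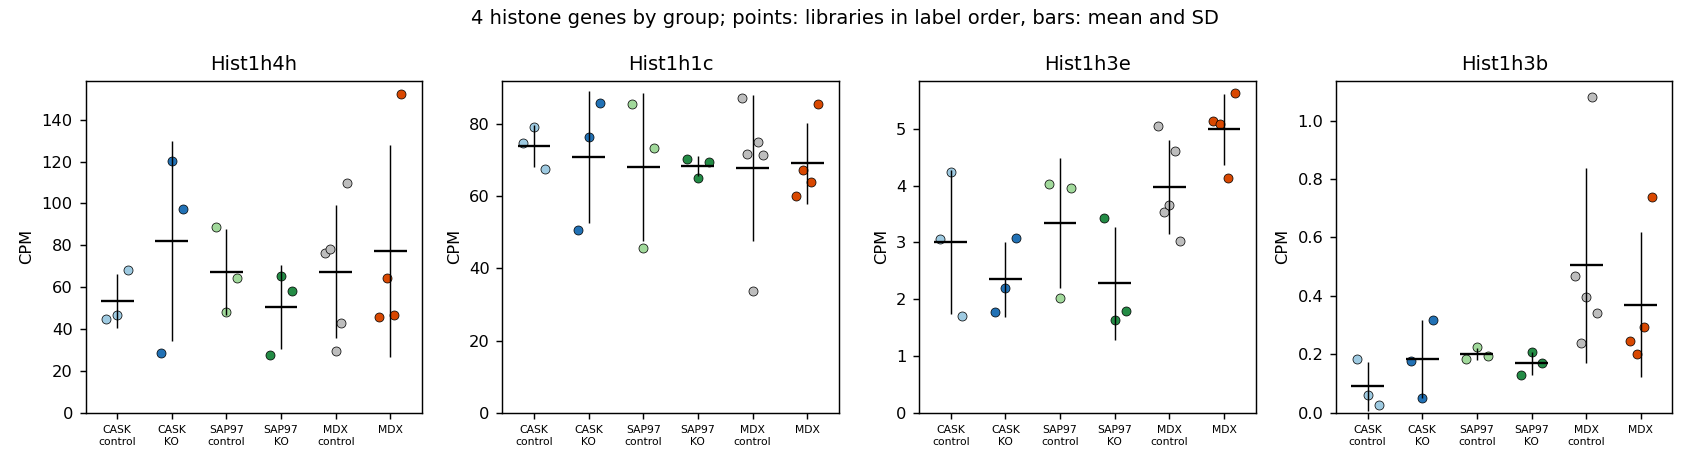
CPM of Hist1h4h, Hist1h1c, Hist1h3e and Hist1h3b by group (linear axes from 0), with a point for each library, a thick bar for the mean and a thin bar for the SD. Hist1h4h reached 152 CPM in MDX replicate 5, Hist1h1c was lowest at 33.7 in MDX control replicate 3 and Hist1h3b highest at 1.08 in MDX control replicate 4.

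Across all 6 groups, 295 genes (1.85%) differed and no histone gene did. At an unadjusted p under 0.05 there were 4 histone genes, against 16.6% of all genes, with the smallest p for Hist1h3e (edgeR adjusted p = 0.139). With no low-count filter, Hist1h3f was called (edgeR adjusted p = 0.00589). Markers of other cell types also varied across the groups, with 6 of 8 tested fibroblast, 5 of 9 macrophage and leukocyte and 4 of 9 endothelial genes at an unadjusted p under 0.05 by edgeR's test. Their smallest edgeR adjusted p were 0.0268 for Lyz2 and 0.0390 for Ptprc, 0.0497 for Col3a1 and 0.161 for Col1a2, and 0.0768 for Egfl7 and 0.173 for Cdh5. None passed 0.01, and their part in the histone values was not tested. Within groups, log2 CPM of the tested histone genes varied with a median SD of 0.43, against 0.29 for all genes tested. The most abundant linker histone gene, Hist1h1c, read 45.6 to 87.3 CPM in 20 libraries and 33.7 in MDX control replicate 3, the library of lowest depth. In that library Hist1h4d was highest of all 21 with 81.4 CPM under TMM scaling, whereas on library totals it read 59.5, below MDX replicates 2 and 3 with 83.3 and 80.3. Hist1h4h read 29.5 CPM there, near its lowest of 27.5.

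Genes that work with these histones did not pass the test either: of 11 gene lists, no member was called in any comparison by edgeR. Among 11 replication-independent histone genes, 10 were tested in each line, with median log2 fold changes of 0.10 in CASK KO, -0.18 in SAP97 KO and 0.01 in MDX. The smallest p in CASK KO were those of Cenpa, the centromeric H3 variant (0.46 ± 0.15, edgeR adjusted p = 0.421), and H2afy2, a macroH2A gene (-0.51 ± 0.23, edgeR adjusted p = 0.580). In SAP97 KO they were those of Cenpa (-0.32 ± 0.17) and H1f0 (-0.23 ± 0.15), the replication-independent linker histone, and in MDX of H2afj (0.43) and H2afx (-0.28). H1f0 read 53.4 ± 12.6 CPM (SD, n = 21) and H3f3b 42.1 ± 11.7. For 16 tested genes of histone message processing the medians were -0.01, 0.01 and 0.00. Slbp read 0.30 ± 0.22 in CASK KO and -0.25 ± 0.17 in SAP97 KO on the log2 scale, and Cpsf3, the nuclease that cuts these messages, -0.28 ± 0.13 in CASK KO. The smallest p of this list were those of these genes in CASK KO, of Slbp and Sympk (0.20) in SAP97 KO and of Cpsf2 (0.22) and Coil (0.28) in MDX.

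For the other lists, the median log2 fold changes are given in the order CASK KO, SAP97 KO and MDX, with the log2 fold changes of the pair of genes of smallest p in each. DNA replication genes had medians of 0.17, 0.07 and -0.04. Their genes of smallest p were Asf1b (0.88) and Mcm2 (0.33) in CASK KO, Mcm7 (0.54) and Mcm2 (0.32) in SAP97 KO, and Mcm7 (0.42) and Ccne1 (-0.60) in MDX. Mitosis genes had medians of -0.19, 0.03 and -0.12, with Kif11 (-0.71) and Bub1b (-0.52) in CASK KO and Cdk1 (0.92) and Kif11 (0.62) in SAP97 KO. In MDX they were Cenpf, a kinetochore gene (0.95 ± 0.24, edgeR adjusted p = 0.823), and Bub1b (-0.61). Histone chaperones had medians of 0.04, -0.14 and 0.03, with Nasp (0.36) and Atrx (0.15), Hat1 (-0.35) and Asf1a (-0.30), and Ssrp1 (0.12) and Atrx (-0.07). RNAs without a tail had medians of -0.02, -0.19 and 0.11, with Scarna2 (0.82) and Rmrp (-0.71) in CASK KO, and Rn7s1 and Rn7s2 in SAP97 KO (-0.90 and -0.83) and in MDX (-1.02 and -0.98). Without MDX control replicate 3 both were near 0 in MDX (0.0010 and 0.0075).

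No cell type marker was called in these comparisons. In CASK KO 8 of 9 endothelial genes lay higher, with a median of 0.32, where 52% of all genes lay higher. For 3 of them the groups did not overlap, as for 5.99% of all genes in this direction. The smallest p were those of Egfl7 (0.93 ± 0.21, edgeR adjusted p = 0.268) and Kdr (0.60). The endothelial medians in SAP97 KO and MDX were -0.06 and 0.21, with Vwf (0.31) and Egfl7 (-0.18), and Tek (0.31) and Pecam1 (0.30). CMC genes had medians of 0.05, -0.04 and 0.00, with Actc1 (-0.35) and Ryr2 (0.32) in CASK KO and Mybpc3 (-0.19) and Tnni3 (0.23) in MDX. In SAP97 KO 3 of 9 CMC genes had an unadjusted p under 0.05 by edgeR's test, all lower. Of all genes, 3.28% were lower at that level. Without overlap 4 CMC genes lay lower, against 6.80% of all genes. Tnni3 (-0.56 ± 0.19) and Myl2 (-0.61 ± 0.21) had the smallest p there, with an edgeR adjusted p of 0.610 for Tnni3. Macrophage and leukocyte genes had medians of -0.31, 0.12 and 0.20, with Ptprc (-0.53) and C1qb (-0.52), Lyz2 (0.18) and Cd68 (0.40), and C1qa (0.37) and Adgre1 (0.29). Fibroblast genes had medians of -0.21, 0.04 and 0.08, with Col1a2 (-0.54) and Col3a1 (-0.50), Col1a1 (1.26) and Col1a2 (0.28), and Pdgfra (0.21) and Tcf21 (0.28).

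Erythroid genes, 4 or 5 tested, had medians of -1.92, 0.73 and -1.04, and single libraries carried the negative values. Hba-a1 read 0.346, 9.21 and 0.399 CPM in CASK controls and 0.967, 0.18 and 0.822 in CASK KO (-2.28), while Alas2 lay higher (1.59). Without CASK control replicate 2 the median in CASK KO was 1.13. In SAP97 KO the smallest p were those of Hba-a1 (0.94) and Hba-a2 (0.87), and in MDX of Hbb-bs (-1.40) and Hbb-bt (-1.17). Hba-a1 read 11.3 CPM in MDX control replicate 1 and 0.512 to 3.10 in the other MDX controls, and the median in MDX was 0.19 without that library. The part of these markers in the histone values was not tested.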

How the data were processed

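RNA was sequenced from ventricular CMCs of male mice with TruSeq Stranded Total RNA libraries. Per the labels and methods, the authors aligned reads to GRCm38 with TopHat2 2.0.13 and Bowtie2 2.2.1 and counted read pairs per gene with HTSeq 0.6.1. The strand setting is not given in the sources used here, nor which samples shared a sequencing round. The deposited raw counts were used for 21 libraries. Left out were 5 count columns, 43 other per-sample columns (TPM and normalized values) and the authors' own fold change and p-value columns.

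Counts were fitted with edgeR 4.0.16 (quasi-likelihood test, TMM, filterByExpr, two-sided, Benjamini-Hochberg, called at 0.01) over all genes of a line, or over 21 libraries for differences between lines, wild type and the 6 groups. Alternatives were DESeq2 1.42.0, RLE size factors, library totals, no filter, a replicate block, leaving out each library and, in MDX, only libraries in identifier order. Their use on list genes was added after seeing the data. The fits were tested on simulated data. P-values weigh a difference between groups against the spread of libraries within groups.

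In CASK, deviations from the group means correlated at 0.51, 0.27 and 0.28 for shared replicate numbers. For unlike numbers the correlations were -0.49 to 0.19. This is a check on the data and not a statement of the labels. So few libraries cannot settle whether the samples were paired, and the main test used no block.

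Named with values were the 12 highest genes per kilobase, the 3 smallest p in each knockout comparison, the genes on chromosomes 6 and 11, any called gene and the 2 smallest p of each list described. Other genes were named after their values were seen. Members and lists were chosen with earlier results of these data known. Sequences are from GENCODE vM21 transcripts and RefSeq promoters.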

Additional observations from a re-analysis of the deposited data

Results flagged for a closer look

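In the MDX group (n = 4), 4 histone values had a library far from the other 3 by Dixon's test at the 95% level. Of 59 values checked in groups of 4 or 5, chance flags about 1 in 20. Hist1h1e, a linker histone gene, read 16.6 CPM in MDX replicate 5 and at most 10.9 in the others. Hist2h2be read 5.31 CPM in that library and at most 3.90 in the others. The summed H2B level was 83.8 CPM there and at most 49.4 in the others. Hist1h4d read 28.7 CPM in MDX replicate 4, the oldest mouse at 17.7 weeks, and at least 75.4 in the others.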

How the results depend on the processing

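No histone gene was called in any comparison under any alternative except Hist1h3f across the 6 groups with no low-count filter (1 gene), and no histone gene of smallest p, for which alternatives were run, changed direction. Counts over all genes moved more. With no filter they were 182 in CASK KO, 134 in SAP97 KO, 6 in MDX, 110, 60 and 18 for CASK KO minus SAP97 KO, CASK KO minus MDX and SAP97 KO minus MDX, 149 for wild type and 992 across groups. DESeq2 called 118, 46 and 19 genes in CASK KO, SAP97 KO and MDX. On library totals CASK KO had 1, and the summed histone level of CASK controls was 340 CPM. The causes were not tested.

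With the replicate block, 11 genes were called in CASK KO, 0 in SAP97 KO and 0 in MDX. Only in CASK did all correlations of shared numbers lie above those of unlike numbers, which does not settle whether the samples were paired. In SAP97 the correlations were -0.03, 0.03 and -0.36, and in MDX -0.09, 0.08, 0.51 and 0.72. The block changed no call of a histone gene.

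Leaving out each library in turn gave 0 to 2 called genes in SAP97 KO, 20 to 77 for CASK KO minus SAP97 KO, 4 to 24 for CASK KO minus MDX, 1 to 2 for SAP97 KO minus MDX, 7 to 22 for wild type and 158 to 357 across groups. Histone medians ranged from -0.28 to 0.10 in SAP97 KO, -0.40 to 0.080 in MDX, -0.11 to 0.43 for CASK KO minus SAP97 KO, -0.033 to 0.45 for CASK KO minus MDX and -0.31 to 0.30 for SAP97 KO minus MDX. Histone sums by group stayed within 1 SD. Genes with few reads limit the precision, and 29 of 67 histone genes were missing from at least 1 library.

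The same alternatives were run for the list genes after seeing the data. With no low-count filter, Egfl7 in CASK KO, Rn7s1, Rn7s2 and Col1a1 in SAP97 KO, and Mki67, Rn7s1, Rn7s2, Cdh5, Hbb-bs and Hbb-bt in wild type were called. Some log2 fold changes turned sign: in MDX, Atrx to 0.0053 on library totals, Hbb-bt to 0.16 with the replicate block and H2afj to -0.022 with only libraries in identifier order. Leaving out each library gave -2.82 to 0.82 for Hba-a1 in CASK KO, -0.0029 to 0.86 for Cd68 and -0.28 to 0.53 for Col1a2 in SAP97 KO. In MDX the ranges were -0.011 to 0.22 for Ssrp1, -1.56 to 0.0010 for Rn7s1, -1.53 to 0.0075 for Rn7s2 and -1.74 to 0.19 for Hbb-bt, and in wild type -0.12 to 0.35 for Myl2.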
